A study of Rattus norvegicus with 4 samples.

Results

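Kinesins and dyneins are the motor proteins that walk along microtubules. Their genes were followed here in cultured rat cortical neurons that carried a short hairpin RNA (shRNA) against PHF6. A list of 48 genes named the members by symbol: 31 kinesin genes, 2 kinesin light chains, 10 cytoplasmic dynein subunits and 5 dynactin subunits. Of these, 45 had a probe set annotated to that gene alone, among 17245 named genes on the array, and the brightest such probe set stood for each gene. Kif1b and Kif14 share their probe set with another gene, Kif17 had no probe set named for it, and these 3 were not analysed here.

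The neurons came from cortex of Sprague Dawley rat embryos at embryonic day 18 and were kept in standard culture. Both groups were infected with pLL3.7 lentivirus, which in the control group carried a control shRNA and in the other PHF6shRNA-2, and RNA was taken 5 days after infection. Each group had 2 arrays, called biological duplicates 1 and 2. Separate cultures or animals are not named in the labels, so the p-values measure the spread between arrays, which may be technical. The labels call the first group wild type and the second a PHF6 knockdown, in one place PHF6 KO, made with 1 hairpin, so what follows from PHF6 loss and what that hairpin does otherwise cannot be told apart. By the design text, quantitative PCR had shown the knockdown beforehand, and its values were not used here. Phf6 itself read 32.8 and 34.3 intensity units with control shRNA and 34.4 and 31.3 with PHF6 shRNA, below the background level on all 4, so its probe set does not check the labels. The background level was the 95th percentile over 1272 genes of smell and pheromone receptors that neurons of the cortex should not use. In duplicates 1 and 2 it was 43.7 and 34.7 intensity units with control shRNA and 42.6 and 36.3 with PHF6 shRNA. It was thus lower in duplicate 2 of each group. More genes were above it there, 10624 against 9362 with control shRNA and 10476 against 9535 with PHF6 shRNA. The 10 neuron markers were above the background level on all 4 arrays, as were 9150 of the 17245 genes. Above it on none were 6 of 10 microglia, 4 of 7 endothelial and fibroblast and 6 of 8 ependymal markers, and 6428 of all genes. In each of these 3 lists 2 markers were above it on all 4 arrays. Also above it on all 4 arrays were 5 of 8 astrocyte, 5 of 9 radial glia and progenitor and 11 of 21 dividing cell markers. These counts are near the share of all genes, so they do not by themselves tell which cells the RNA came from.

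A kinesin heavy chain carries the motor domain, and most kinesins walk toward the microtubule plus end, which in axons points to the synapse. Cytoplasmic dynein, held together around its heavy chain, walks the other way with the help of the dynactin complex and brings endosomes and signals back to the cell body. Another set of kinesins builds the spindle and the midbody of dividing cells, and neurons that have left the cell cycle make little of it. Those motors are therefore also read as signs of dividing cells in a culture.

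No motor gene passed limma's adjusted p of 0.05, and neither did any other gene (0.0% of 17245 genes). At an unadjusted p under 0.05, 9 of the 45 motor genes were lower in the PHF6 shRNA arrays, where 7.52% of all genes were. On the higher side stood 1 motor gene, against 3.28% of all genes. Of the 9150 genes above background on all 4 arrays, which hold 35 of the motor genes and these 10 among them, 13.3% were lower and 5.08% higher by that rule. The 9 lower genes were Dync1i2, Dync1i1, Dynll2 and Dync1li2 of dynein, Dctn6 and Dctn4 of dynactin, and the kinesin genes Kif26b, Kif21a and Kif3c, and the higher one was the dynein light chain gene Dynlt3. Leaving out control duplicate 2 took the count of 9 to 3, and leaving out PHF6 shRNA duplicate 1 took it to 5. It was 6 after a further quantile normalization and 5 under cyclic loess, which also gave 2 higher. Over all genes at that unadjusted level, 69.7% were lower as deposited, 58.0% after quantile normalization and 53.5% under cyclic loess.

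By sign alone, 32 of the 45 motor genes were lower in the PHF6 shRNA arrays (71.1%, against 52.3% of all genes) and 13 higher. Of the 35 motor genes above background on all 4 arrays 65.7% were lower, close to the 60.8% of all such genes. The median of the 45 was -0.11 log2 units, or -0.064 without control duplicate 2. The median over all genes was -0.0066, and over the genes above background on all 4 arrays it was -0.049. The groups' arrays did not overlap for 25 motor genes (37.8% of all genes). Of these, 19 were lower (21.7% of all genes) and 6 higher, as were 2761 of the 17245 genes. For 21 motor genes the difference between groups was larger than both gaps between duplicates, which held for 26.6% of all genes. Of the 35 motor genes above background on all 4 arrays, 23 did not overlap and 20 exceeded both gaps, against 46.5% and 34.8% of all such genes. Without overlap, 17 of the 35 were lower, as were 2919 of the 9150 such genes. With the duplicate number as a block, 4 motor genes and 5.27% of all genes passed limma's adjusted p of 0.05. For any 1 gene on its own, the smallest two-sided p of an exact permutation test over 2 and 2 arrays is 0.333.

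**Figure D1:**
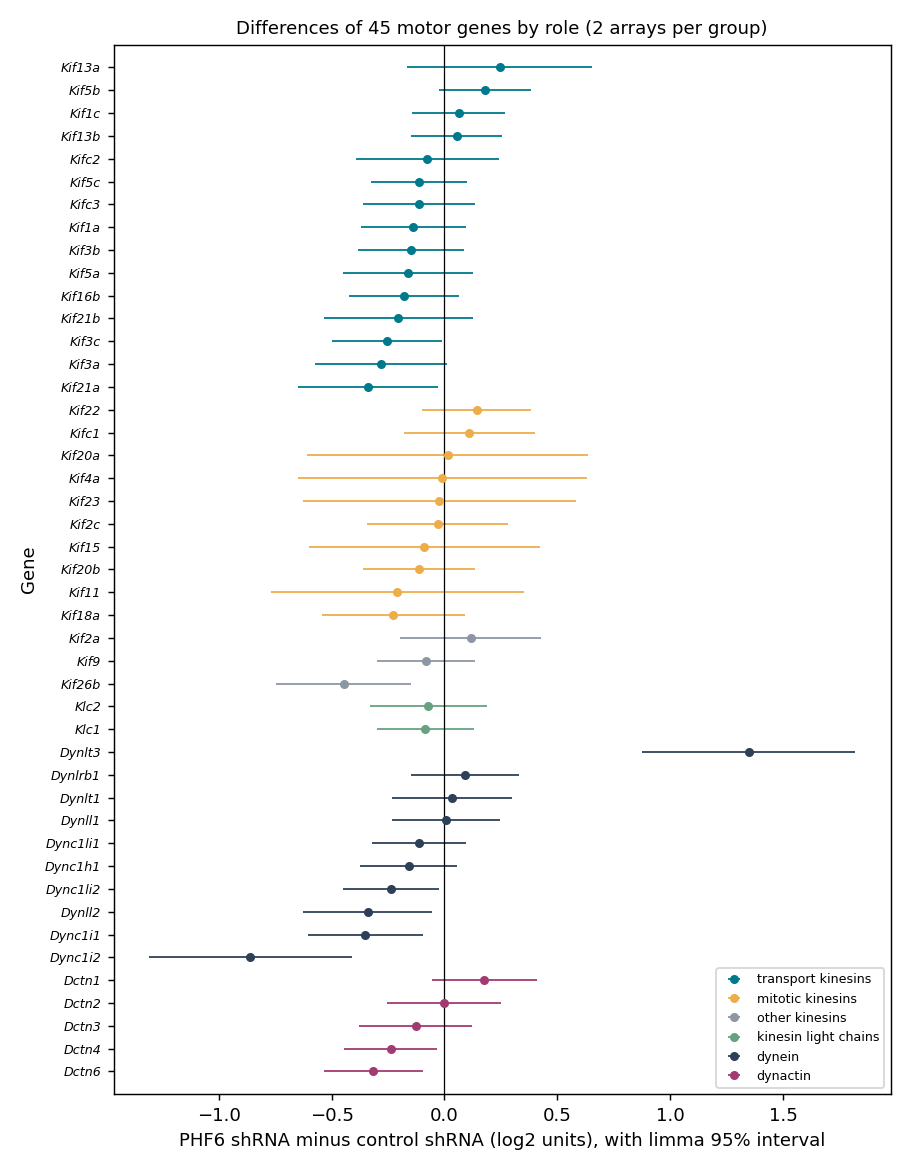
Difference between PHF6 shRNA and control shRNA arrays (x axis, log2 units, points) with limma's 95% interval (bars) for the 45 motor genes (y axis), coloured by role, 2 arrays per group. Dynlt3 stands at 1.35 and Dync1i2 at -0.86, while the other dynein and dynactin genes lie between -0.35 and 0.18 and the intervals of all 10 mitotic kinesins cross 0.

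Dynein showed the 2 largest differences of the motor genes. Dynlt3, a Tctex-type light chain that binds the intermediate chains of dynein, read 86.3 and 116 intensity units with control shRNA and 289 and 225 with PHF6 shRNA. Both PHF6 shRNA arrays were above both control arrays, and the gap between the groups was wider than either duplicate gap. The difference was 1.35 ± 0.19 log2 units (SE, n = 2 and 2), or 2.54-fold, with a 95% interval from 0.88 to 1.82. It did not pass over all genes (limma adjusted p = 0.23, unadjusted p = 0.00056). Leaving out each array in turn gave 1.13 to 1.56, with limma adjusted p from 0.015, when PHF6 shRNA duplicate 2 was the one left out, to 0.54. Such a fit takes its spread from the other group, so the lone array is assumed to vary as that group does. Dynlt1, the other Tctex-type light chain, read 969 and 1138 with control shRNA and 1075 and 1077 with PHF6 shRNA. Its groups overlapped, and the difference was 0.035 ± 0.11 log2 units with a 95% interval from -0.23 to 0.30.

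The intermediate chains, which link dynein to dynactin and to cargo, were lower for both genes. Dync1i2, the form made in most cell types, read 543 and 620 with control shRNA and 269 and 380 with PHF6 shRNA. The lower control array stood above the higher PHF6 shRNA array, although the PHF6 shRNA duplicates differed from each other by 0.50 log2 units. The difference was -0.86 ± 0.18 log2 units, or 1.81-fold, with a 95% interval from -1.31 to -0.41 (limma adjusted p = 0.24, unadjusted p = 0.0039). It was -1.11 when PHF6 shRNA duplicate 2 was left out and -0.61 when PHF6 shRNA duplicate 1 was. The limma adjusted p of these fits, with the spread of one group again assumed for the lone array, ran from 0.019 for the first of them to 0.55 for the fit lacking control duplicate 2. Dync1i1, the form enriched in neurons, read 695 and 692 in the control arrays, which lay within 0.0066 log2 units of each other, and 584 and 507 in the PHF6 shRNA arrays. It differed by -0.35 ± 0.10 log2 units (limma adjusted p = 0.33, unadjusted p = 0.016).

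Because the intermediate chain genes stood lower together, the 250 bases before their start sites are shown, taken from RefSeq on the GRCr8 assembly and written 5′ to 3′ on the gene's strand. Every gene was given 1 window, before its most 5′ start site, and any other start site was not searched. The Dync1i1 window lies at chr4:34819191-34819440 on the plus strand and the Dync1i2 window at chr3:76441371-76441620 on the plus strand. Capitals mark exact matches, on either strand, to 5 motifs. The GC box, bound by Sp1-type factors, was searched as GGGCGG. The CCAAT box was searched as those letters. The CRE, to which the activator CREB binds, was searched as TGACGTCA. The TATA box, which places the start of transcription, was searched as TATAAA. The CHR element of cell cycle genes was searched as TTTGAA. These motifs do not overlap one another in the windows shown.
Dync1i1 promoter: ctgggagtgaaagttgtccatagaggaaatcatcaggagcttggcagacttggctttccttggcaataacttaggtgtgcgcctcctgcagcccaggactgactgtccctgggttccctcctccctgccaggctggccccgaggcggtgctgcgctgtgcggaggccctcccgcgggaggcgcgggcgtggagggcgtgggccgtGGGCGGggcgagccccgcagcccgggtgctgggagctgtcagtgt
Dync1i2 promoter: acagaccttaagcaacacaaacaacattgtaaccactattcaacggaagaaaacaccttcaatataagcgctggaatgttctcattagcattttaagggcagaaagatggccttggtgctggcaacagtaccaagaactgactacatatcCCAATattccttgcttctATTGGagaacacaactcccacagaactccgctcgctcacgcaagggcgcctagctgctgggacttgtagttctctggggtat
The Dync1i1 window held 1 GC box and no CCAAT box, and the Dync1i2 window held 2 CCAAT boxes and no GC box. A GC box was found in 6 of the 7 dynein windows available and in 32.4% of the 27457 gene windows of the same length, and a CCAAT box in 3 of 7 against 34.3%. Windows were available for 36 of the 45 motor genes, Dynlt3 not among them. A match is a run of letters and not a site shown to be used.

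The other dynein subunits differed less. Dynll2, an LC8-type light chain that holds partner proteins as a dimer, read 379 and 337 with control shRNA and 304 and 262 with PHF6 shRNA, without overlap. It differed by -0.34 ± 0.11 log2 units (limma adjusted p = 0.39, unadjusted p = 0.028). Its close relative Dynll1 read 2253 and 2540 against 2404 and 2403 and differed by 0.0065 ± 0.095. Among the light intermediate chains, which bind the adaptors that select cargo, Dync1li2 read 480 and 514 with control shRNA and 420 and 422 with PHF6 shRNA. It differed by -0.24 ± 0.085 log2 units (limma adjusted p = 0.41, unadjusted p = 0.035). A second, dimmer Dync1li2 probe set lay below background on all 4 arrays and differed by 0.11, the other way. The mean of both probe sets gave -0.062 (limma adjusted p = 0.95), so the difference rests on the brighter one. Dync1li1 differed by -0.11 ± 0.083 and the heavy chain gene Dync1h1 by -0.16 ± 0.085, both without overlap and both with intervals that included 0. Dync1h1 read 891 and 937 in the controls, and 838 and 800 when PHF6 was targeted. Dynlrb1, a roadblock-type light chain, differed by 0.090 ± 0.095.

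Paralogous subunits were also compared within each array, as the log2 ratio of one gene's probe set to the other's, where only the shift between groups can be read. The ratio of Dynlt3 to Dynlt1 was 1.31 log2 units higher in the PHF6 shRNA arrays, at -2.08 ± 0.26 against -3.39 ± 0.14 (SD, n = 2 each). The ratio of Dynll2 to Dynll1 shifted by -0.35 on the log2 scale. It read -2.57 and -2.91 with control shRNA and -2.98 and -3.19 with PHF6 shRNA, so the control duplicates lay about as far apart as the shift. The ratio of Dync1i2 to Dync1i1 shifted by -0.51. It read -0.35 and -0.16 with control shRNA and -1.12 and -0.41 with PHF6 shRNA, so the PHF6 shRNA duplicates lay further apart than the shift. The ratio of Dync1li2 to Dync1li1 shifted by -0.12. Between the kinesin-1 heavy chains, the ratio of Kif5b to Kif5a shifted by 0.34 and that of Kif5b to Kif5c by 0.29. In all 6 pairs the groups did not overlap, and each gave an exact two-sided permutation p of 0.333, the smallest possible here, which stayed 0.333 after adjustment over the 6 pairs. That p follows from the non-overlap alone. Taken singly, 37.8% of all genes and 46.5% of those above background on all 4 arrays did not overlap. No such share was taken over other gene pairs, and Kif5b entered both kinesin pairs.

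Dynactin, which tethers dynein to cargo and to the microtubule, had 4 of 5 genes on the lower side with a median of -0.13 log2 units, a value that was -0.045 with PHF6 shRNA duplicate 1 left out, -0.070 with control duplicate 2 left out and -0.21 with PHF6 shRNA duplicate 2 left out. Dctn6, a subunit of the complex's pointed end, read 611 and 624 with control shRNA and 517 and 477 with PHF6 shRNA. These groups did not overlap, and the difference was -0.32 ± 0.087 log2 units (limma adjusted p = 0.32, unadjusted p = 0.013). Dctn4, also of the pointed end, read 404 and 420 against 346 and 353 and differed by -0.24 ± 0.082 (limma adjusted p = 0.40, unadjusted p = 0.030). Dctn1, the large subunit that grips both microtubules and the dynein intermediate chain, went the other way. It read 323 and 302 with control shRNA and 368 and 338 with PHF6 shRNA, a difference of 0.18 ± 0.093 (limma adjusted p = 0.62). Dctn2, or dynamitin, differed by -0.0033 ± 0.10, a sign that turned to 0.056 after quantile normalization and 0.069 under cyclic loess. Dctn3 differed by -0.13 ± 0.10 with overlapping arrays, and its second probe set by -0.08.

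**Figure D2:**
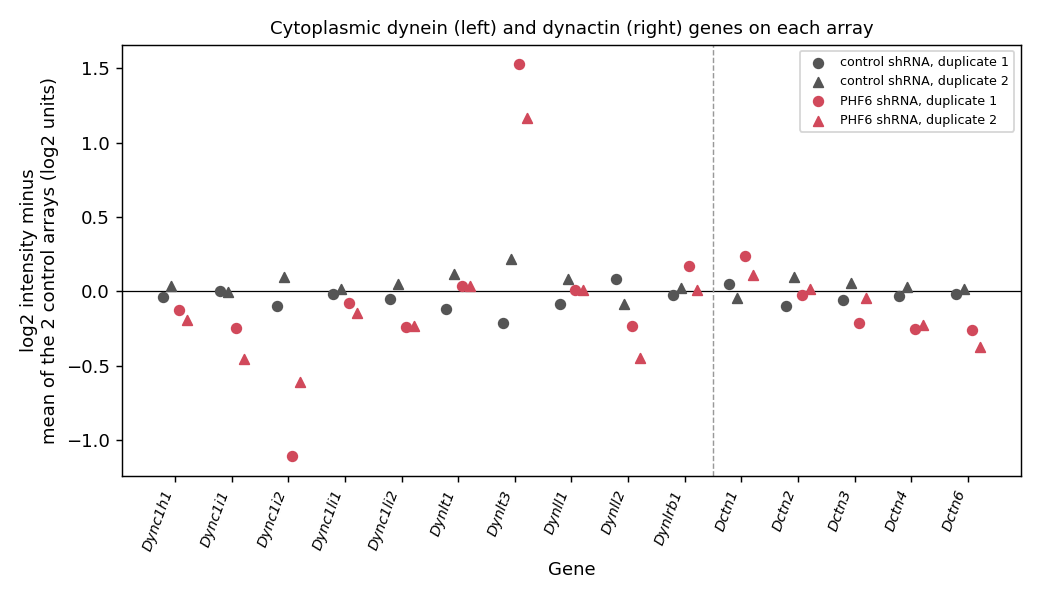
Log2 intensity of each array minus the mean of the 2 control arrays (y axis, log2 units) for the 10 dynein and 5 dynactin genes (x axis), with control shRNA in grey, PHF6 shRNA in red, duplicate 1 as circles and duplicate 2 as triangles. Both red points lie above the grey ones for Dynlt3 and Dctn1 and below them for Dync1h1, Dync1i1, Dync1i2, Dync1li1, Dync1li2, Dynll2, Dctn4 and Dctn6. The points of Dynlt1, Dynll1, Dynlrb1, Dctn2 and Dctn3 overlap.

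Transport kinesins had 11 of 15 measured genes on the lower side, with a median of -0.14 log2 units. The median was -0.091 after quantile normalization and -0.077 under cyclic loess, and it was -0.067 without PHF6 shRNA duplicate 2. Of the 15, 14 were above background on all 4 arrays and Kif16b, a motor of early endosomes, on none. The groups did not overlap for 11 genes, 8 lower and 3 higher, and for 9 genes the difference was larger than both duplicate gaps. Over all genes these shares were 37.8% and 26.6%, and over genes above background on all 4 arrays 46.5% and 34.8%.

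Kinesin-2 genes stood on the lower side together. Kif3a, whose product pairs with Kif3b or Kif3c, read 236 and 284 with control shRNA and 208 and 218 with PHF6 shRNA, a difference of -0.28 ± 0.12 log2 units (limma adjusted p = 0.48, unadjusted p = 0.056). Kif3c, a neuronal partner, read 628 and 641 against 500 and 567 and differed by -0.25 ± 0.097 (limma adjusted p = 0.44, unadjusted p = 0.044). For Kif3b the arrays read 193 and 208 against 173 and 188, a difference of -0.15 ± 0.094. Kifap3, the accessory subunit of the Kif3a and Kif3b motor, was not on the list of members. It read 893 and 913 against 802 and 808, a difference of -0.17 ± 0.080 (limma adjusted p = 0.58). In all 4 of these genes both PHF6 shRNA arrays lay below both control arrays. The same held for 21.7% of all genes and for 2919 of the 9150 genes above background on all 4 arrays, as these 4 were. None of the 4 passed over all genes. Kif3c alone among them had an unadjusted p under 0.05, with a difference that was -0.16 when PHF6 shRNA duplicate 1 was left out.

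Kinesin-1 heavy chains, which carry vesicles and mitochondria down the axon, did not share a sign. Kif5b, the form made in most tissues, read 812 and 784 with control shRNA and 892 and 913 with PHF6 shRNA, a difference of 0.18 ± 0.082 log2 units (limma adjusted p = 0.54, unadjusted p = 0.076). The neuronal forms were on the other side. Kif5a read 772 and 774 in the control arrays against 760 and 629, so that PHF6 shRNA duplicate 1 lay close to the controls, and differed by -0.16 ± 0.12. Kif5c read 837 and 871 against 813 and 768 and differed by -0.11 ± 0.085. The light chain genes, whose products attach kinesin-1 to cargo, differed by -0.084 ± 0.085 (Klc1) and -0.071 ± 0.10 (Klc2). A second probe set of Klc2 stood at 0.04, and the Klc2 arrays overlapped.

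In the kinesin-3 and kinesin-4 families the differences were of mixed sign. Kif21a, a kinesin-4 motor that restrains microtubule growth, read 161 and 188 with control shRNA and 128 and 149 with PHF6 shRNA, a difference of -0.34 ± 0.12 log2 units (limma adjusted p = 0.42, unadjusted p = 0.037). Its relative Kif21b read 222 and 279 against 209 and 223, with overlap, and differed by -0.21 ± 0.13, which was -0.039 when control duplicate 2 was left out. Kif1a, which carries synaptic vesicle precursors, read 1067 and 1113 against 1040 and 943. Its groups did not overlap, yet the difference of -0.14 ± 0.092 was smaller than the gap between the PHF6 shRNA duplicates. Kif13a read 77.2 and 89.9 with control shRNA and 85.5 and 114 with PHF6 shRNA, an overlapping difference of 0.25 ± 0.16. It ran from 0.038 to 0.45 as PHF6 shRNA duplicate 2 or 1 was left out. Kif1c and Kif13b differed by 0.063 ± 0.082 and 0.054 ± 0.081, and Kif16b, below background, by -0.18 ± 0.097. The minus-end motors Kifc2 and Kifc3 differed by -0.076 ± 0.13 and -0.11 ± 0.099, with overlap in both.

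Among 3 kinesins of other roles, Kif26b was lower. This divergent kinesin, which binds microtubules without stepping along them, read 143 and 171 intensity units with control shRNA and 120 and 110 with PHF6 shRNA, a difference of -0.45 ± 0.12 log2 units (limma adjusted p = 0.30, unadjusted p = 0.011). Kif26b had 4 probe sets, all above background on all 4 arrays, and the other 3 differed by -0.20, -0.34 and -0.40. Kif26a, its paralog outside the list of members, differed by -0.28 ± 0.099 without overlap (limma adjusted p = 0.41). Kif2a, a microtubule depolymerase that limits axon branches, differed by 0.12 ± 0.13 with overlap, and Kif9, a motor of cilia, by -0.083 ± 0.087 below background.

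Among the mitotic kinesins the groups mostly overlapped. Of 10 measured, 7 were lower and 3 higher, with a median of -0.027 log2 units, and none had an unadjusted p under 0.05. The groups overlapped for 9 of the 10, Kif22 being the exception at 0.14 ± 0.097, and for none was the difference larger than both duplicate gaps. Over all genes, 52.3% were lower and 10.8% had an unadjusted p under 0.05. The groups did not overlap for 37.8% of all genes, so most genes overlapped, and 26.6% exceeded both gaps. Of these genes, 2 were above background on all 4 arrays, Kif22, a chromosome-binding motor, and Kifc1, a minus-end motor of the spindle. Kif2c, Kif4a and Kif20b were above it on none. The difference between the transport and mitotic medians was -0.11 log2 units, and leaving out each array in turn gave -0.33 to 0.20, near 0 when control duplicate 1 was left out and with the sign turned, at 0.20, when PHF6 shRNA duplicate 2 was. Without PHF6 shRNA duplicate 1 the mitotic median was 0.17, and without PHF6 shRNA duplicate 2 it was -0.27.

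For most mitotic kinesins the duplicates also differed in 1 direction. In both groups duplicate 2 read higher than duplicate 1 for 9 of the 10 mitotic kinesins, against 7 of 15 transport kinesins and 32.3% of all genes. The numbers 1 and 2 are names in the labels, which do not say what the arrays of one number share. Kif20a, which acts in the last step of cell division, read 37.4 in duplicate 1 and 56.2 in duplicate 2 of the controls, and 38.8 and 55.2 with PHF6 shRNA. Its difference between groups was 0.015 ± 0.25 log2 units, while the duplicates differed by 0.59 and 0.51. Kif4a, a chromokinesin, read 22.0 and 32.4 in the controls and 21.7 and 32.4 with PHF6 shRNA, so its group difference was -0.010 ± 0.26. Kif11, which pushes spindle poles apart, read 43.4 and 53.8 in the controls and 33.8 and 51.8 with PHF6 shRNA. Its difference was -0.21 ± 0.22, with a 95% interval from -0.77 to 0.35. Kif23, of the midbody, read 30.9 and 34.4 in the controls and 24.8 and 41.4 with PHF6 shRNA, the widest duplicate gap of the motor genes at 0.74. Kif15 read 39.1 and 43.1 against 31.3 and 47.6. The remaining differences were -0.23 ± 0.13 for Kif18a, -0.11 ± 0.099 for Kif20b, -0.031 ± 0.12 for Kif2c and 0.11 ± 0.12 for Kifc1.

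**Figure D3:**
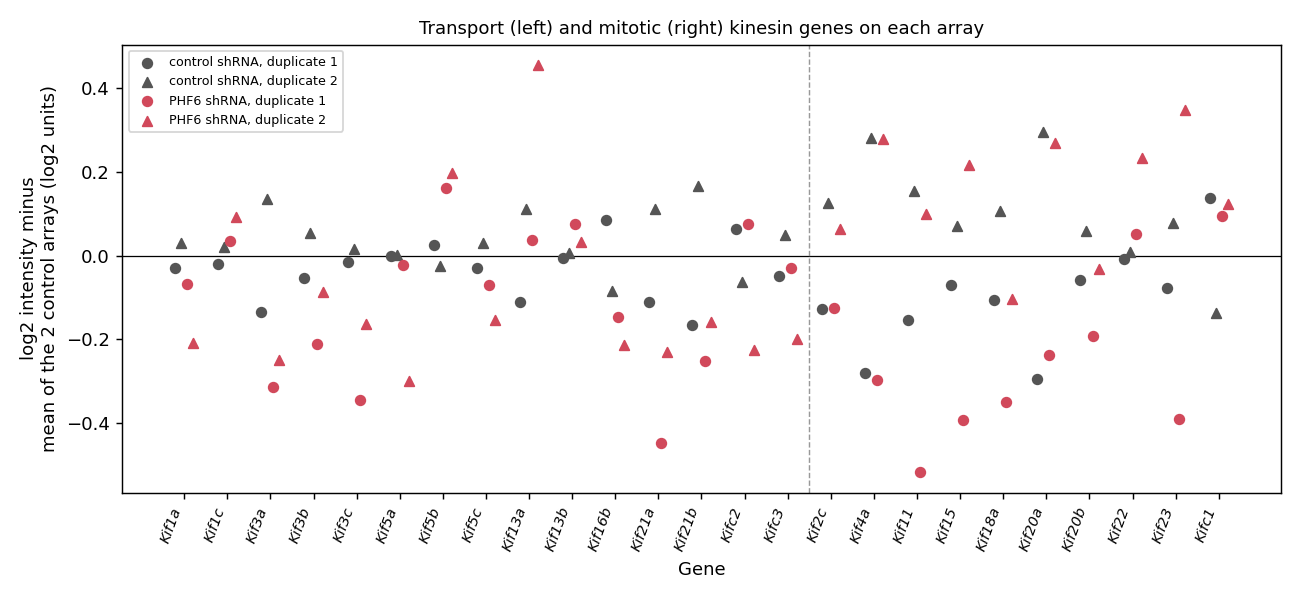
Log2 intensity of each array minus the mean of the 2 control arrays (y axis, log2 units) for 15 transport and 10 mitotic kinesin genes (x axis), with control shRNA in grey, PHF6 shRNA in red, duplicate 1 as circles and duplicate 2 as triangles. Among transport kinesins red points tend to lie below grey ones, 11 of 15 genes being lower on average, and among mitotic kinesins the triangles lie above the circles of both colours for 9 of 10 genes.

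Markers of dividing cells moved with the mitotic kinesins between duplicates. Of 21 measured, 20 were higher in duplicate 2 in both groups, and their summed intensity was 1220 and 1892 in control duplicates 1 and 2 and 1096 and 1928 in PHF6 shRNA duplicates 1 and 2. Mki67, which marks cycling cells, read 108 and 205 in the controls and 60.7 and 236 with PHF6 shRNA, and Top2a read 72.6 and 142 against 58.9 and 145. None of the 21 had an unadjusted p under 0.05 between the shRNA groups, and 3 of them were above background on no array. Radial glia and progenitor markers were higher in duplicate 2 in both groups for 9 of 9, and astrocyte markers for 8 of 8. The same held for 32.3% of all genes and 44.5% of those above background on all 4 arrays. It also held for 5 of 10 neuron, 5 of 9 oligodendrocyte lineage and 3 of 8 ependymal markers. Of endothelial and fibroblast markers it held for 1 of 7, and of microglia markers for 0 of 10. The radial glial gene Fabp7 read 223 and 821 in the controls and 259 and 880 with PHF6 shRNA. The part of dividing cells, progenitors and astrocytes in the mitotic kinesin values was not tested. In RNA of a whole culture, fewer cells of a type and less RNA per cell cannot be told apart.

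**Figure D4:**
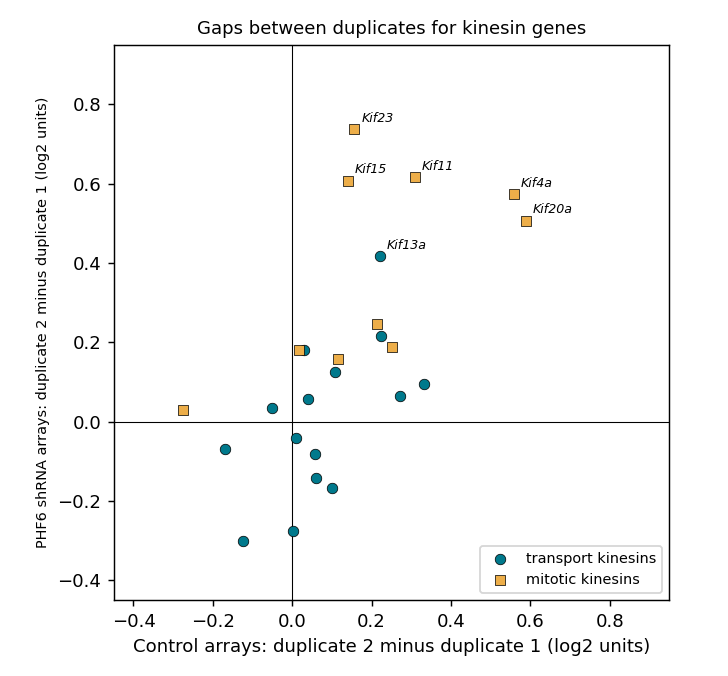
Gap between duplicate 2 and duplicate 1 in the control arrays (x axis, log2 units) and in the PHF6 shRNA arrays (y axis, log2 units) for 15 transport kinesins (circles) and 10 mitotic kinesins (squares), with gaps above about 0.4 named. Of the mitotic kinesins 9 of 10 lie above 0 on both axes, with gaps up to 0.59 in the controls and 0.74 with PHF6 shRNA, and of the transport kinesins 7 of 15.

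Promoters of mitotic motors are known for CCAAT boxes, bound by NF-Y, and for CHR elements, through which cell cycle genes are held silent in resting cells. Windows of 3 mitotic kinesins are shown for this reason, Kif4a and Kif11 for their duplicate gaps and Kif22 as a gene above background on all 4 arrays. They come from the same source, with the same 5 motifs in capitals. The Kif4a window lies at chrX:69761633-69761882 on the plus strand, the Kif11 window at chr1:244536617-244536866 on the plus strand and the Kif22 window at chr1:191080879-191081128 on the minus strand.
Kif4a promoter: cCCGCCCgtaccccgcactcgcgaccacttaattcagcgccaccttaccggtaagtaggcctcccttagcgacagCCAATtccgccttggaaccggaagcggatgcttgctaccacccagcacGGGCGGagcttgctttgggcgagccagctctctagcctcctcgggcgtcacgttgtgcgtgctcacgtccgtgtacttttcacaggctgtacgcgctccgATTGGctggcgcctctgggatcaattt
Kif11 promoter: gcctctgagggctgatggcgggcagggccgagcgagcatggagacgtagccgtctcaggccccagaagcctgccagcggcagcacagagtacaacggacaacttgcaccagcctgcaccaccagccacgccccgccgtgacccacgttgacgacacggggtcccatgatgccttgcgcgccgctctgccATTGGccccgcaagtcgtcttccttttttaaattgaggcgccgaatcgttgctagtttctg
Kif22 promoter: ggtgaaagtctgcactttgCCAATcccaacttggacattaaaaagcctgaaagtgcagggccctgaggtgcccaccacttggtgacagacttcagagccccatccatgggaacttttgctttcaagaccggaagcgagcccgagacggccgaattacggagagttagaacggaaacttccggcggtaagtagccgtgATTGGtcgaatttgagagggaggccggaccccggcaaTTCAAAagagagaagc
Kif4a held 2 CCAAT boxes and 2 GC boxes, Kif11 held 1 CCAAT box, and Kif22 held 2 CCAAT boxes and 1 CHR element. A CCAAT box was found in 7 of 10 mitotic kinesin windows, 2 of 10 transport kinesin windows and 34.3% of all windows. A CHR element was found in 5 of 10 mitotic and 0 of 10 transport windows, and in 16.1% of all windows. For the GC box the counts were 6 of 10 mitotic and 9 of 10 transport windows, against 32.4% of all. CRE and TATA boxes each stood in at most 2 windows of either list, against 1.69% and 13.1% of all windows.

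Other genes of the motor pathway were read from lists of adaptors, microtubule proteins and further subunits. Adaptors and regulators, which choose cargo or switch motors on and off, were lower in 24 of 37, and their median was -0.051 log2 units. At an unadjusted p under 0.05, 3 of the 37 were lower and 2 higher, against 7.52% and 3.28% of all genes and 13.3% and 5.08% of those above background on all 4 arrays. The share of lower adaptor genes was thus near the background. Trak2, an adaptor that joins mitochondria to kinesin and dynein, read 165 and 189 with control shRNA and 378 and 275 with PHF6 shRNA. The groups did not overlap, and it differed by 0.87 ± 0.17 log2 units, or 1.82-fold (limma adjusted p = 0.24, unadjusted p = 0.0030). With single arrays left out Trak2 ran from 0.64 to 1.10, and the limma adjusted p, which rests on the spread of the other group, from 0.019 to 0.54, the former when PHF6 shRNA duplicate 2 was left out. Hap1, a huntingtin partner that binds dynactin and kinesin, differed by 0.34 ± 0.093, the dynein adaptor gene Bicd2 by -0.33 ± 0.10 and Kifbp, whose product keeps kinesins off microtubules, by -0.40 ± 0.15.

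Tubulins and microtubule-binding proteins were lower in 31 of 45, and their median was -0.074 log2 units. At an unadjusted p under 0.05, 10 were lower and 4 higher. The shares were 7.52% and 3.28% of all genes, and 13.3% and 5.08% of genes above background on all 4 arrays, where 42 of the 45 lay. Stmn1, or stathmin, which binds free tubulin, read 2727 and 3112 with control shRNA and 1726 and 2043 with PHF6 shRNA. It differed by -0.63 ± 0.12 log2 units without overlap (limma adjusted p = 0.24, unadjusted p = 0.0028). Map4, a microtubule-associated protein of many tissues, read 396 and 474 against 592 and 674 and differed by 0.55 ± 0.13 (limma adjusted p = 0.26). Ttll1, a tubulin polyglutamylase, and Camsap2, which caps microtubule minus ends, differed by -0.31 ± 0.087 and -0.29 ± 0.081.

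Motor subunits outside the list of members were lower in 12 of 21, and their median was -0.028, with 3 lower at an unadjusted p under 0.05. By that rule 7.52% of all genes were lower, and 13.3% of those above background on all 4 arrays, where 11 of the 21 lay. Capzb, which caps the short actin-like filament of dynactin, read 768 and 771 with control shRNA and 546 and 576 with PHF6 shRNA, a difference of -0.46 ± 0.083 log2 units (limma adjusted p = 0.24, unadjusted p = 0.0020). It caps ordinary actin filaments as well. Actr10, at the pointed end with Dctn4 and Dctn6, read 254 and 320 against 192 and 231 and differed by -0.44 ± 0.15 (limma adjusted p = 0.41). Axonemal dyneins, the motors of beating cilia, were lower in 6 of 16, and their median was 0.011, and 11 of the 16 were above background on no array. Dnal4, a light chain, differed by -0.42 ± 0.083 without overlap (limma adjusted p = 0.24). The next by unadjusted p were Dnah2 at 0.091, Dnah9 at -0.067 and Dnah7 at 0.062.

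Markers of the cell types in the culture were read beside the transport motors. Neuron markers were lower in 9 of 10, against 60.8% of all genes above background on all 4 arrays, and their median was -0.20 log2 units. Their summed intensity was 12923 and 13000 in the control arrays against 11466 and 11770 in the PHF6 shRNA arrays. The neuronal tubulin gene Tubb3, a member of the microtubule list too, differed by -0.22 ± 0.084, Gap43 by -0.24 ± 0.091 and the neurofilament gene Nefl by -0.65 ± 0.21 (limma adjusted p = 0.45, 0.43 and 0.39). These were the only 3 of the 10 lower at an unadjusted p under 0.05, against 13.3% of genes above background on all 4 arrays. Without overlap, 6 of the 10 were lower, as were 21.7% of all genes and 2919 of the 9150 above background on all 4 arrays. With overlap, Nefm differed by -0.28 ± 0.19, Rbfox3 by -0.039 ± 0.11, Snap25 by -0.049 ± 0.099 and Map2, the 1 marker on the higher side, by 0.054 ± 0.093. All 8 astrocyte markers measured were higher, and 5 of them were above background on all 4 arrays. Higher too were 8222 of all 17245 genes and 3590 of the 9150 above background on all 4 arrays. The median of the 8 was 0.17, led by Slc1a2 at 0.98 ± 0.20 and Aldoc at 0.61 ± 0.18 (limma adjusted p = 0.24 and 0.35). In these 2 alone the groups did not overlap, which held for 37.8% of all genes. Gfap differed by 0.0094 ± 0.29 and Gja1 by 0.034 ± 0.33. The summed intensity of the 8 overlapped between groups, at 808 and 1454 in the controls and 1141 and 1771 with PHF6 shRNA. Oligodendrocyte lineage markers had a median of -0.038 over 9 genes and radial glia markers one of 0.078 over 9. For dividing cells, microglia, endothelial cells with fibroblasts, and ependymal cells the medians were -0.081, -0.015, 0.060 and -0.023. The part of these shifts in the transport motor values was not tested.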

How the data were processed

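Total RNA of 4 samples of rat cortical neurons was measured with 1-colour Affymetrix arrays, as the labels give it. The deposited values are probe set intensities that the authors made with RMA, per the submitters' processing notes, with version and settings not given in the sources used here. They run from 8.57 to 6121 on a linear scale, and all tests used their log2. RMA shrinks folds of dim probe sets. Precision is limited by the number of arrays.

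The platform annotation names 1 gene for 18644 of 29214 rows, several for 962 and none for 9608. Symbols were updated through the gene identifier to RefSeq of GRCr8 for 18460 rows, which gave 17245 genes. Of several probe sets the brightest over the 4 arrays was used. Any 2 arrays held the same value in at most 11 rows. The test was limma 3.58.1 under R 4.3.3 (lmFit, eBayes, two-sided, without covariate or filter), checked on simulated data, with p-values adjusted by Benjamini-Hochberg across the 17245 genes at a threshold of 0.05. Differences are PHF6 shRNA minus control shRNA, with limma's SE. The 13 alternatives were a block for the duplicate number, leaving out each array, 3 other scalings, 2 filters on dim genes, a variance trend, the mean of probe sets and an offset of 16 intensity units. The members and lists were chosen with earlier results of these data known. Any member could be named, and of each other list up to 4 genes by smallest p and its defining markers.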

Additional observations from a re-analysis of the deposited data

How the results depend on the processing

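All 10 motor genes with an unadjusted p under 0.05 kept their sign under the 13 alternatives, and 32 of the 45 motor genes did. For those 10 this was largely fixed in advance. Their groups did not overlap, so leaving out any 1 array could not turn the sign. The block, the variance trend and the filters on dim genes leave the difference itself unchanged. No label says that the duplicate numbers pair the arrays, though the deviations of same-numbered arrays from their group means correlated at 0.57 across genes. With the duplicate number as a replicate block, 909 genes passed the adjusted threshold, 3409 an unadjusted p under 0.05 and 2257 of those toward lower signal. Under that block Dync1i2, Dynlt3, Kif21a and Dynll2 passed (limma adjusted p = 0.0071, 0.0077, 0.048 and 0.048), and 2 motor genes were higher at an unadjusted p under 0.05. Cyclic loess gave 5 motor genes lower and 2 higher at that unadjusted level, a transport median of -0.077 and a dynein median of -0.081, and quantile normalization a transport median of -0.091. The mean of probe sets gave a dynein median of -0.087 and 8 motor genes lower at that level, and the offset 2 motor genes higher. Dctn2 turned to 0.056 under quantile normalization and 0.069 under cyclic loess. The cause of these shifts was not tested.

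Leaving out each array in turn gave 0 to 90 genes past the adjusted threshold, 1282 to 1856 at the unadjusted level, 715 to 1228 of them lower, and 4 to 9 motor genes, of which 3 to 8 lower and 1 to 3 higher. Between 25 and 36 motor genes were then lower. The medians ran from -0.16 to -0.067 (transport), -0.27 to 0.17 (mitotic), -0.17 to -0.10 (dynein), -0.21 to -0.045 (dynactin) and -0.16 to -0.06 (all motor genes), and transport minus mitotic from -0.33 to 0.20. Signs turned for Kifc2 (-0.23 to 0.074), Kif2c (-0.16 to 0.10), Kif4a (-0.30 to 0.28), Kif11 (-0.52 to 0.10), Kif15 (-0.39 to 0.21), Kif20a (-0.28 to 0.31), Kif23 (-0.39 to 0.35), Kifc1 (-0.028 to 0.25), Kif2a (-0.039 to 0.27), Klc2 (-0.17 to 0.027), Dynlt1 (-0.080 to 0.15), Dynll1 (-0.080 to 0.093) and Dctn2 (-0.10 to 0.10). Most mitotic kinesins lay at or near background, so their differences are not exact.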
